A study of Mus musculus with 26 samples.

Results

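Som_2 is 1 of 3 clusters that the deposited cell table gives for thalamic neurons labelled from the somatosensory cortex of mice, and it holds 132 of the 1972 cells of the series. Its members were taken as every cell with that cluster name, 49, 40 and 43 cells of somatosensory animals 1, 2 and 3. They were 65.3%, 58.0% and 30.5% of each animal's somatosensory cells and 46.3% of all 285. Its working description is a second group of neurons with high Tnnt1, next to Som_1, and its markers are Tnnt1 and Nr2f2. The groups set against it are Mot_2 (152 cells of motor-labelled neurons), Mot_1 (97), Mot_3 (159), Mot_4 (69), the auditory-labelled cluster Aud_1 (101) and the other somatosensory clusters Som_1 (90) and Som_3 (60). All mice were male, with no further genotype or strain given in the labels. The somatosensory animals have ages of 64, 64 and 78 the motor animals 112, 112, 71, 69 and 69, and the auditory animals 104, 104, 81, 81 and 70 in the cell table, which gives no unit. A retrograde label, taken up at axon endings in the cortex and carried back to the cell body, had marked the neurons. Coronal slices of the thalamus were treated with pronases in the presence of blockers of neural activity, and fluorescent neurons were picked by hand. Single cells then went into 3′ libraries on plates, with spike-in RNAs and UMIs, the short barcodes by which copies of 1 captured transcript are counted once. The label marks only cells whose axons reach the injected site, and hand sorting sets how many cells of a cluster are seen, so the shares above are shares of picked cells.

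Thalamic relay neurons are glutamate neurons that carry sensory, motor and other signals to the cortex, and they fire either single spikes or bursts that depend on T-type calcium channels. First-order relay nuclei pass on signals from the periphery, and higher-order nuclei also receive driving input from the cortex. Tnnt1 encodes a troponin T of slow skeletal muscle whose transcript is widely used as a marker of thalamic relay neurons, and Nr2f2 encodes the nuclear receptor COUP-TFII. Parvalbumin (Pvalb) and calbindin (Calb1) are calcium-binding proteins long used to divide thalamic neurons into core and matrix types.

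Raw UMI counts were summed per animal over the cells of a cluster, and levels are CPM, a gene's part of the UMIs of a sum put on 1 scale for all sums. The 3 Som_2 sums held 5173244, 4404889 and 2828408 UMIs. The median Som_2 cell had 99551, 102823 and 57067 UMIs in animals 1, 2 and 3, with 5561, 5615 and 4862 detected genes. Every somatosensory animal was sequenced in batch 2, whereas motor animals 1 and 2 were in batch 1, animal 3 in batch 2, on the same 10 plates as the somatosensory cells, and animals 4 and 5 in batch 3. The Aud_1 sums come from auditory animals 2, 3, 4 and 5, of batches 1, 2, 2 and 3. The Mot_2 sum of motor animal 1 stood apart: it had 11 cells, 6001 CPM of the small RNA gene Mir6236 against 32.1 to 70.7 CPM in the other Mot_2 sums, and 86.7 CPM of Tnnt1 against 416 to 420. Motor animal 2 had 1 Mot_2 cell and gave no sum. Markers of other cell types were low in Som_2: all 10 astrocyte markers together had 0.707 to 5.80 CPM, against 0 to 3.91 in Mot_2 and 1.87 to 3.52 in Som_1. Of the 10 microglia markers 8 were at 0, among them Cx3cr1, C1qa and Tmem119, with 73.6 to 169 CPM in all, against 70.7 to 220 in Mot_2. The 10 oligodendrocyte markers had 37.5 to 67.0 CPM, with Cldn11 and Opalin at 0, against 13.9 to 80.9 in Mot_2. Markers of endothelial cells and of habenula neurons had at most 15.7 CPM in total. The 10 markers of GABA neurons had 0.354 to 14.1 CPM in all, against 0.982 to 18.5 in Mot_2, and 6 of the 10 were at 0 in Som_2, Gad1 among them.

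The markers given for the cluster were present in nearly every cell or in most cells. Tnnt1 (GRCm38 chromosome 7, 4504570 to 4516382, minus strand) had 460, 529 and 457 CPM in the 3 Som_2 sums, 86.7, 416, 418 and 420 CPM in the Mot_2 sums of motor animals 1, 3, 4 and 5, and 516 and 486 CPM in the Som_1 sums of animals 2 and 3. It had only 76.2 and 41.0 CPM in Som_3 (animals 1 and 3) and 21.9 to 117 CPM in Mot_1. A Tnnt1 UMI was found in 97.7% of Som_2 cells (93.2% with each cell thinned to 20000 UMIs), in 90.8% of Mot_2 cells (88.8%) and in 56.7% of Mot_1 cells (33.0%). Among single Som_2 cells the middle 50% lay between 234 and 644 CPM. Nr2f2 (chromosome 7, 70351944 to 70366735, minus strand) had 109, 108 and 92.3 CPM in Som_2, against 71.2 to 113 CPM in Mot_2 and 169 and 202 CPM in Som_1. A Nr2f2 UMI was found in 72.0% of Som_2 cells (54.5% thinned), 69.1% of Mot_2 cells (55.9%) and 96.7% of Som_1 cells (82.2%). The share was 76.7% in Som_3 (53.3%) and 86.6% in Mot_1 (69.1%), so Nr2f2 was not particular to Som_2. The Nr2f2 levels of Som_2 and Mot_2 overlapped, as did the Tnnt1 levels of Som_2 and Som_1, while Nr2f2 was lower in every Som_2 sum than in both Som_1 sums.

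General genes of thalamic glutamate neurons were high. Slc17a6, the vesicular glutamate transporter VGLUT2, had 657, 576 and 550 CPM in Som_2, Prkcd, a protein kinase C, 2918, 3723 and 3493 CPM, and Lef1, a partner of beta-catenin, 377, 432 and 327 CPM. Tcf7l2, a transcription factor that maintains thalamic identity, had 1289, 988 and 1300 CPM in Som_2, 1059 to 1264 in Mot_2, 414 and 450 in Som_1, and 362 to 472 in Mot_1. Foxp2, a forkhead transcription factor, had 286, 261 and 327 CPM in Som_2, 257 to 359 in Mot_2, 110 and 83.8 in Som_1, and 38.9 to 129 in Mot_1. Rora, an orphan nuclear receptor of sensory relay neurons, had 2588, 2364 and 2557 CPM in Som_2 and 2136 to 2582 CPM in Mot_2. Tcf7l2 and Foxp2 thus lay at like levels in Som_2 and Mot_2, with no Som_1 or Mot_1 sum reaching them. Pvalb divided the clusters in the same way, with 2.71, 8.85 and 1.77 CPM in Som_2 and 0.491 to 16.1 in Mot_2, against 135 and 173 in Som_1 and 217 to 495 in Mot_1. Calb1 had 566, 436 and 470 CPM in Som_2 and 188, 278, 416 and 370 CPM in Mot_2, 146 and 185 CPM in Som_1, 137 to 204 CPM in Mot_1, and 1651 and 1881 CPM in Som_3. Som_2 therefore held little Pvalb and a Calb1 level between Som_1 and Som_3.

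**Figure D1:**
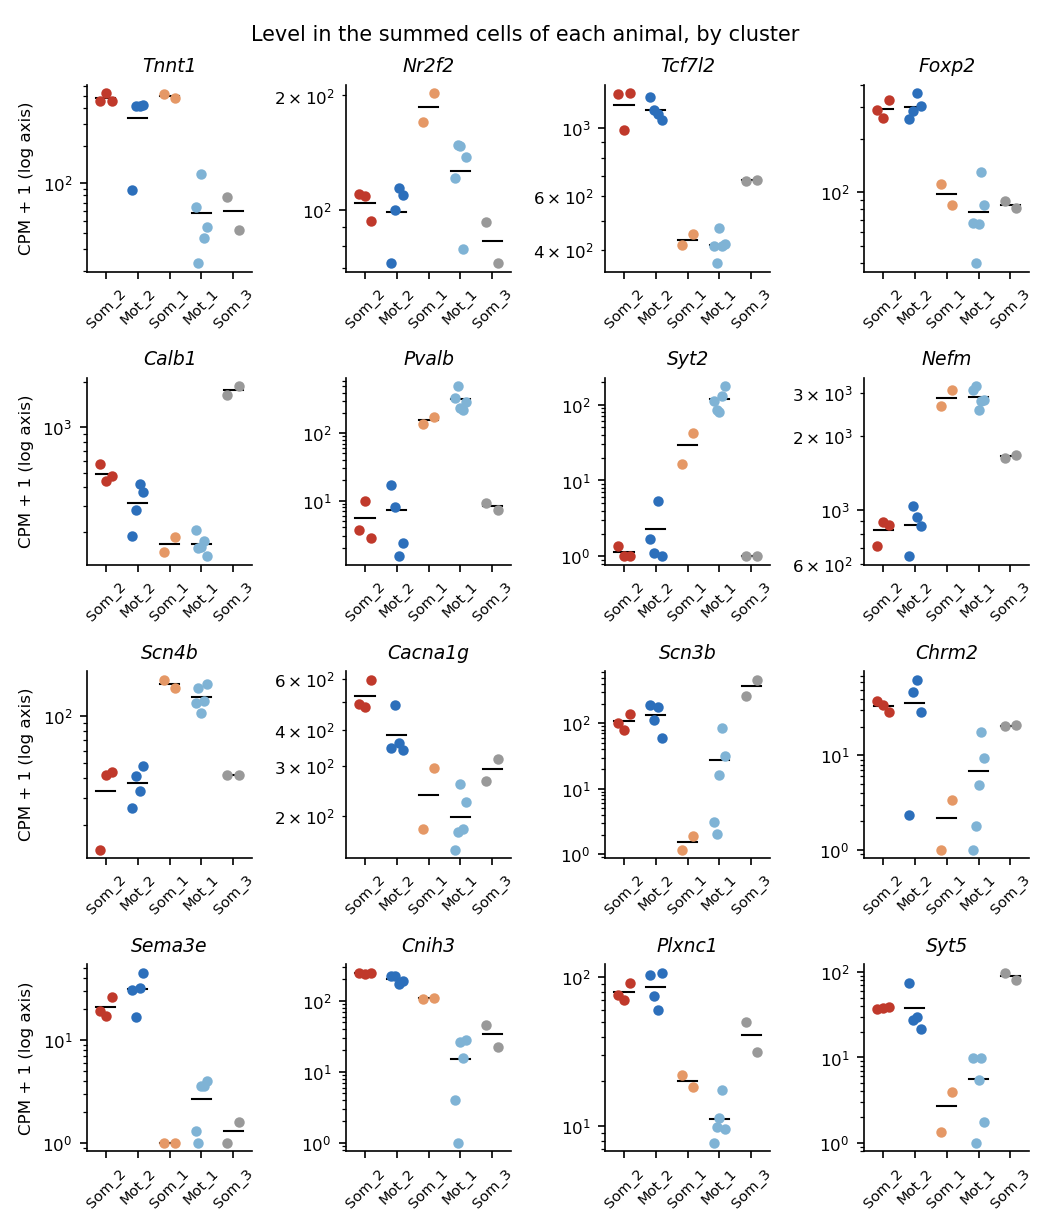
Levels of 16 genes in the sums of Som_2, Mot_2, Som_1, Mot_1 and Som_3 (y axis, CPM + 1, log scale; each point is 1 animal's sum, the black line the mean). Som_2 and Mot_2 points lie together for most genes, as for Tcf7l2 (988 to 1300 CPM in Som_2, 1059 to 1264 in Mot_2), while Som_1 and Mot_1 lie together for Pvalb and Nefm.

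The authors' clustering over all systems put most Som_2 and Mot_2 cells in 1 place. Of the 132 Som_2 cells 123 were in joint cluster 2, which is 93.2% (exact Clopper-Pearson 95% interval 87.5% to 96.8%). By animal these were 43 of 49, 40 of 40 and 40 of 43 cells. The other 9 cells were 5 in joint cluster 4, which held 56 of the 60 Som_3 cells, 2 in joint cluster 1, which held 76 of the 90 Som_1 cells, and 1 each in joint clusters 5 and 6. Of the Mot_2 cells 122 of 152 were in joint cluster 2 (80.3%, exact 95% interval 73.0% to 86.3%), with 8 of 11, 83 of 97, 16 of 23 and 14 of 20 cells in motor animals 1, 3, 4 and 5, and the 1 cell of animal 2. Mot_2 had 15 cells in joint cluster 1. Joint cluster 2 held 312 cells in all, 39.4% of them Som_2, 39.1% Mot_2, 9.94% Mot_4 (31 cells) and 2.88% Som_1 (9 cells). Those 31 cells were 44.9% of the 69 Mot_4 cells, so a large share in joint cluster 2 was not particular to Som_2 and Mot_2. These intervals cover counting error only. The clusters and joint clusters were drawn from these counts, and how they were made is not given in the sources used here. Sharing a joint cluster is therefore a description, and the p-values between clusters below set a difference against the spread between animals without showing that the groups are distinct.

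**Figure D2:**
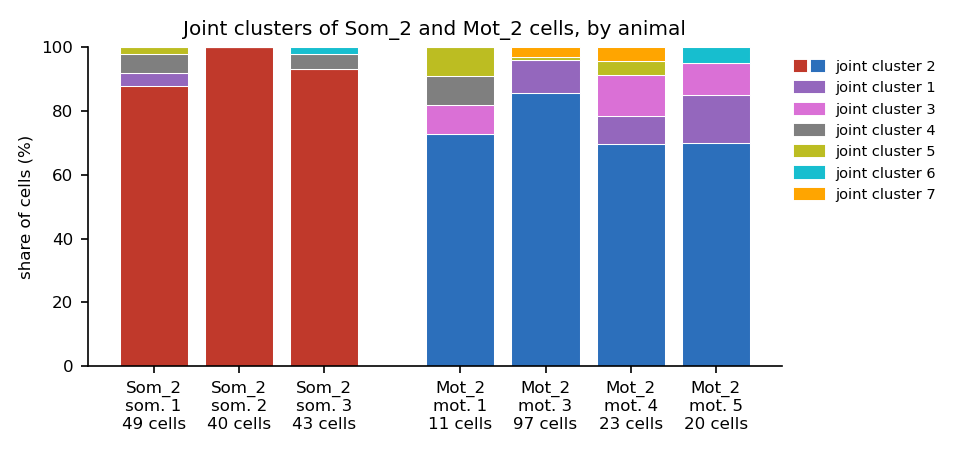
Share of Som_2 cells (left) and Mot_2 cells (right) of each animal in each joint cluster (y axis, percent of cells; 1 bar per animal). Joint cluster 2 holds 87.8%, 100% and 93.0% of the Som_2 cells of the 3 animals and 69.6% to 85.6% of the Mot_2 cells of the 4 animals shown.

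The first comparison asked which genes differ between Som_2 and Mot_2, clusters of different projection systems with most of their cells in joint cluster 2. In edgeR's quasi-likelihood test with Benjamini-Hochberg adjustment, 0 of 11909 genes passed an adjusted p of 0.05 (0%) between the 3 Som_2 and the 4 Mot_2 sums. At an unadjusted p under 0.05 there were 314 genes, fewer than that threshold lets through when nothing differs. DESeq2 called 1 gene, and edgeR without a filter on low counts 15. With sequencing batch as a covariate 0 genes passed (71 unadjusted), and within batch 2 alone, where Mot_2 has the 1 sum of animal 3, again 0 (141 unadjusted). The sums of the clusters did not overlap for 376 genes that were higher in Som_2 (3.16% of those tested) and 255 that were lower (2.14%). With only 3 and 4 sums such separation also arises without a difference, so a lack of overlap is a description here and below. A count of 0 does not show that the neurons were alike: the median 95% interval of a gene reached 0.92 to either side on the log2 scale, close to a 2-fold change. Among 9393 genes at 10 CPM or more the median absolute log2 difference between Som_2 and Mot_2 was 0.27, and 5.89% of them differed by more than 2-fold. The same values were 0.44 and 15.1% against Mot_1, 0.32 and 8.75% against Mot_3, 0.41 and 13% against Mot_4, and 0.33 and 9.80% against Aud_1.

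Nr2f2, Tcf7l2, Foxp2, Rora and Nefm lay at like levels in Som_2 and Mot_2, while other listed genes lay further apart. Tnnt1 differed by a log2 fold of 0.52 ± 0.38 (SE; 95% interval -0.29 to 1.33, unadjusted p = 0.188), and by 0.21 without motor animal 1. Nr2f2 differed by 0.06 ± 0.25 (-0.48 to 0.61), Tcf7l2 by 0.04, Foxp2 by -0.06 and Rora by 0.10. Nefm, the medium neurofilament subunit of thick axons, had 715, 888 and 868 CPM in Som_2 against 646, 1037, 938 and 858 CPM in Mot_2, a log2 difference of -0.09 ± 0.17 (-0.46 to 0.28). Cacna1g, the T-type calcium channel behind relay bursts, had 492, 481 and 597 CPM in Som_2 and 343, 486, 359 and 340 CPM in Mot_2 (0.44, unadjusted p = 0.0307, adjusted p = 0.998 in edgeR). Every gene list gave 0 calls against Mot_2. At an unadjusted p under 0.05 there were 5 of 23 tested genes of relay identity, 5 of 22 of burst and leak channels, 7 of 66 of axon guidance and adhesion, 2 of 18 calcium-binding proteins and 0 of 17 of fast firing channels and neurofilaments, beside 314 of 11909 over all genes tested. Their median log2 differences were -0.06, -0.02, -0.18, 0.12 and -0.08, beside -0.01 over all genes tested. Every other list had 0 genes at that unadjusted p. Among them were 0 of 30 glutamate receptor genes, 0 of 27 release genes and 0 of 76 respiratory chain genes.

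The genes with the smallest unadjusted p against Mot_2 were chosen after their values were seen, since none passed the adjustment. Tenm2, a teneurin that joins synaptic partners across the cleft, had 37.3, 30.2 and 24 CPM in Som_2 against 105, 90.4, 96.7 and 93.1 CPM in Mot_2. The groups did not overlap, with a log2 fold of -1.67 ± 0.30 (95% interval -2.33 to -1.01, unadjusted p = 0.000107, adjusted p = 0.998 in edgeR, 6.93e-05 in DESeq2). With no filter on low counts its adjusted p in edgeR was 0.0182. On the plates that each somatosensory animal shared with motor animal 3, Tenm2 had 37.3 in Som_2 against 84.5 CPM in Mot_2, 30.2 against 46.5, and 24 against 115. A Tenm2 UMI was found in 36.4% of Som_2 cells (19.7% thinned) and 70.4% of Mot_2 cells (51.3% thinned). Tenm2 lies on chromosome 11, 36006656 to 37235964, minus strand.

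Necab1, a neuronal calcium-binding protein (chromosome 4, 14952245 to 15149794, minus strand), had 26.1, 9.76 and 0.354 CPM in Som_2 and 152, 73.0, 131 and 89.2 CPM in Mot_2. Its log2 fold was -3.18 ± 0.74 (unadjusted p = 0.000918, adjusted p = 0.998 in edgeR). With cells thinned to 20000 UMIs it was -4.08 (adjusted p = 0.00264), the 1 call of that setting. With no filter on low counts it was -3.16 (adjusted p = 2.93e-11 in edgeR). In Som_2 the transcript sat in few cells: 12 of 132 had a UMI (9.09%), and 3 of them held 74.3% of the Necab1 UMIs, whereas 61 of 152 Mot_2 cells had one (40.1%). Level and share were both higher in Mot_2, while the 3 Som_2 sums differed widely among themselves.

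Other genes of small p ran in both directions. Jmy, a regulator of actin, had 26.1, 27.7 and 21.2 CPM in Som_2 against 88.0, 50.4, 49.1 and 87.8 in Mot_2 (log2 -1.47 ± 0.38). Lhx9, a LIM homeobox factor of the developing thalamus, had 28, 26.1 and 20.5 CPM in Som_2 against 110, 51.2, 49.1 and 68.7 in Mot_2 (-1.50 ± 0.40). Both were lower in every Som_2 sum than in every Mot_2 sum. Ptchd1, a patched-domain membrane protein, had 16, 25.4 and 38.9 CPM in Som_2 against 0.672, 6.28, 3.93 and 3.96 in Mot_2 (2.78 ± 0.74). Coro2a, an actin-binding coronin, had 148, 146 and 160 CPM in Som_2 against 35.6, 105, 63.8 and 74.6 in Mot_2 (1.10 ± 0.31). Ache, the enzyme that breaks down acetylcholine, had 141, 138 and 112 CPM in Som_2 against 39.6, 85.6, 72.7 and 59.4 in Mot_2 (1.01 ± 0.28). These 3 genes were higher in every Som_2 sum. For Ache the plate-matched values were 141 in Som_2 against 68.8 in Mot_2, 138 against 68.5 and 112 against 105 CPM. Robo2, a receptor of the axon repellent Slit, had 24, 27.0 and 40.7 CPM in Som_2 against 6.72, 15.8, 6.88 and 5.94 in Mot_2 (1.74, unadjusted p = 0.0105). Cdh4, an adhesion cadherin, had 86.0, 33.1 and 57.6 CPM in Som_2 against 0, 21.8, 4.91 and 3.30 in Mot_2 (2.83, unadjusted p = 0.00477). Cacna1e, the R-type calcium channel, had 3.48, 5.90 and 9.90 CPM in Som_2 against 113, 14.3, 11.8 and 38.3 in Mot_2, so that its log2 fold of -2.83 leaned on motor animal 1. Calb1 differed by 0.64 ± 0.24 (unadjusted p = 0.0183). The other 4 of the 12 smallest p were Vav3, a guanine nucleotide exchange factor (-0.84), Nop56, a nucleolar protein (-1.22), Crtc3, a coactivator of CREB (-1.12), and Negr1, an adhesion protein (0.96). All of these had an adjusted p of 0.998 in edgeR.

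**Figure D3:**
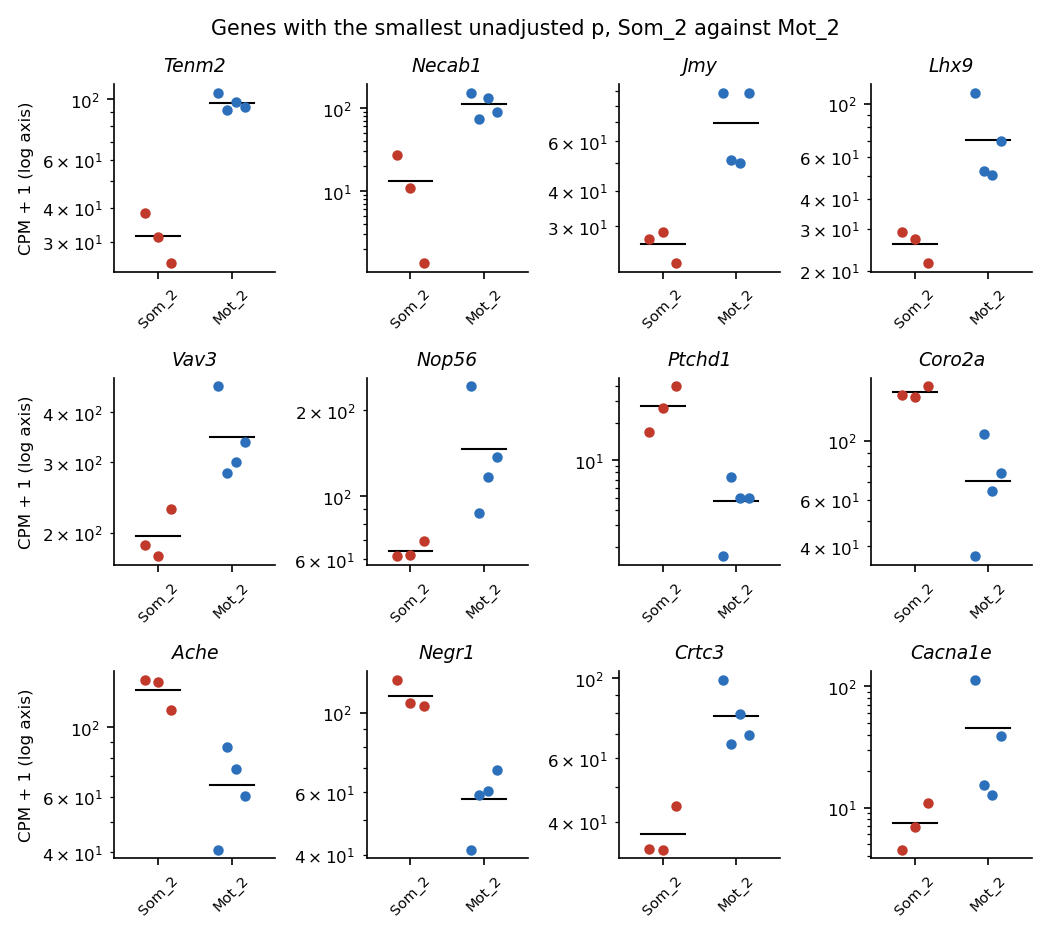
CPM of the 12 genes with the smallest unadjusted p between Som_2 and Mot_2 (y axis, CPM + 1, log scale; each point is 1 animal's sum, Som_2 left and Mot_2 right in each panel). None passed the adjusted threshold of 0.05, and Tenm2, the gene of smallest p, lay at 24 to 37.3 CPM in Som_2 and 90.4 to 105 CPM in Mot_2.

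Sequencing batch moved with single genes of this comparison. Gm26870, a gene model with no name, had 554, 1412 and 1347 CPM in Som_2, and in Mot_2 14.1, 1043, 41.3 and 65.4 CPM, where the high sum is that of batch 2. Without motor animal 3 it became the only call (log2 fold 4.76, adjusted p = 0.00879 in edgeR), and within batch 2 alone its log2 fold was 0.09. The part of batch in the other differences cannot be told apart from projection system in the batches that hold no Som_2 sum.

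Against Mot_1, the Pvalb-rich motor cluster, Som_2 differed widely. Of 12621 genes 931 passed (7.38%), 394 higher (3.12%) and 537 lower (4.25%) in Som_2 (edgeR, adjusted p under 0.05). With batch as a covariate, where the comparison rests on the 1 Mot_1 sum of batch 2, 63 passed, 13 higher and 50 lower. Of those 62 were among the 931, and 928 of the 931 kept their sign. The count was 396, 581 and 335 without somatosensory animals 1, 2 and 3. In the paragraphs on Mot_1 below, each called gene is given with its value under the batch covariate, because most calls were lost there.

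Genes of relay identity separated Som_2 from Mot_1 in both directions. Of 23 tested 8 were higher and 4 lower (2 and 1 with batch), with a median log2 fold of 0.05 beside 0.00 over all genes. Tnnt1 was higher by a log2 fold of 3.03 ± 0.36 (edgeR adjusted p = 0.000183; 2.00 and adjusted p = 0.112 with batch). Tcf7l2 was higher by 1.44 ± 0.14 (adjusted p = 2.57e-05; 1.30 and 0.0318 with batch) and Calb1 by 1.48 (0.000185; 1.61 and 0.0413 with batch). Foxp2 was higher by 1.86 (0.00105; 2.13 and 0.0503 with batch). Pvalb was lower, with a log2 fold of -6.18 ± 0.49 (4.19e-06; -5.71 and 0.00097 with batch), and it lies on chromosome 15, 78191114 to 78206400, minus strand. Nr2f2 differed by -0.37 (adjusted p = 0.457).

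Fast firing channels and neurofilaments were lower or not called. Of 17 tested 9 were lower and 0 higher in Som_2 (5 and 0 with batch), with a median of -0.76. Nefm had 715, 888 and 868 CPM in Som_2 against 2550 to 3190 CPM in Mot_1, a log2 fold of -1.89 ± 0.14 (adjusted p = 2.49e-06; -1.67 and 0.00097 with batch). Nefl, the light subunit, had a fold of -1.66 (-1.56 and adjusted p = 0.0019 with batch) and Nefh, the heavy one, of -2.25 (-1.57 and 0.00802 with batch). Kcnab3, a subunit of voltage-gated potassium channels, had 25.3, 28.8 and 18.4 CPM in Som_2 against 106 to 154 in Mot_1 (-2.60; -2.70 and adjusted p = 0.00544 with batch). Kcna1, a low-threshold potassium channel, had a fold of -1.35 (-1.23 and 0.0603 with batch), and Scn4b, a sodium channel subunit of resurgent current, of -2.13 (-1.73 and 0.203 with batch). Depth moved with this comparison: the median cell had 57067 to 102823 UMIs in the Som_2 sums against 77682 to 334268 in the Mot_1 sums, and spike-ins took 4.47% to 6.39% against 3.57% to 5.84%. Of 76 genes of the respiratory chain 45 were lower and 0 higher in Som_2 (5 and 0 with batch), with a median of -0.83. Atp5b, the ATP synthase beta subunit, had 816, 1015 and 704 CPM in Som_2 against 1595 to 2089 CPM in Mot_1 (-1.22; -0.95 and adjusted p = 0.0635 with batch). Many respiratory chain genes have pseudogene copies that can share reads, so single values there are uncertain. The part of depth in these differences was not tested beyond thinning, with which 655 of the 8107 genes then tested passed.

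Channels of bursting, glutamate receptors and adhesion molecules had calls in both directions, most of which were lost with batch. Of 22 burst and leak channels 5 were higher and 1 lower (0 and 0 with batch). Cacna1g had 481 to 597 CPM in Som_2 against 152 to 258 in Mot_1 (log2 1.32, adjusted p = 0.000492; 0.98 and 0.147 with batch). Of 32 glutamate receptor genes 6 were higher and 1 lower (0 and 0 with batch), with a median of 0.48. Grik1, a kainate receptor subunit, had 82.2, 92.2 and 134 CPM in Som_2 and 66.5 to 90.1 in Mot_2, against 0 to 7.03 in Mot_1 (5.27, adjusted p = 0.00102; 7.20 and 0.173 with batch). Cnih3, an auxiliary protein of AMPA receptors (chromosome 1, 181352628 to 181460641, plus strand), had 245, 238 and 247 CPM in Som_2 and 172 to 225 in Mot_2, against 0 to 27.0 in Mot_1 (4.05, adjusted p = 0.00232; 3.21 and 0.0996 with batch). The Som_1 sums held 46.5 to 109 CPM of these genes, between Som_2 and Mot_1. Of 68 genes of axon guidance and adhesion 9 were higher and 5 lower (1 and 2 with batch). Sema3e, a secreted semaphorin, had 18.4, 16.1 and 25.5 CPM in Som_2 against 0 to 3.02 in Mot_1 (3.49, adjusted p = 0.04; 2.90 and 0.447 with batch). Plxnc1, a semaphorin receptor, had 75.4, 69.9 and 90.5 CPM in Som_2 against 6.72 to 16.5 in Mot_1 (2.88; 2.89 and adjusted p = 0.0996 with batch). Tenm2 had a fold of -2.53 (adjusted p = 4.19e-05; -2.29 and 0.00897 with batch).

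Genes of transmitter release changed in both directions, 3 of 29 higher and 6 lower (0 and 3 with batch). Syt2, the calcium sensor of fast release (chromosome 1, 134646677 to 134762593, plus strand), had 0.387, 0 and 0 CPM in Som_2 and 0 to 4.42 in Mot_2, against 79.5 to 174 in Mot_1 (adjusted p = 1.39e-06; 0.000191 with batch). Vamp1, a vesicle protein of fast synapses, had 200, 176 and 243 CPM in Som_2 against 394 to 670 in Mot_1 (-1.49; -1.74 and adjusted p = 0.0127 with batch). Syt5, another synaptotagmin, had 36.0, 36.6 and 38.2 CPM in Som_2 against 0 to 8.91 in Mot_1 (2.95, adjusted p = 0.0496; 2.99 and 0.579 with batch). Among genes of large fold outside the lists, chosen after their values were seen, were Adgrf5, an adhesion G protein-coupled receptor, and Cbln2, a cerebellin that organises synapses. Adgrf5 (chromosome 17, 43360451 to 43459557, plus strand) had 199, 209 and 273 CPM in Som_2 and 165 to 223 in Mot_2, against 0 to 7.40 in Mot_1 (7.15, adjusted p = 7.87e-05; 4.89 and 0.00544 with batch). Cbln2 had 1.2, 0 and 0.354 CPM in Som_2 against 201 to 487 in Mot_1 (adjusted p = 1.39e-06; 2.64e-05 with batch). Of 18 calcium-binding proteins 4 were higher and 1 lower (1 and 1 with batch). The calls that held with batch were Calb1 and Pvalb, which are also counted under relay identity above. The higher ones include Hpca, a neuronal calcium sensor, with 283, 181 and 187 CPM in Som_2 against 0.261 to 19.6 in Mot_1 (4.24; 3.66 and adjusted p = 0.33 with batch). Its relative Hpcal4 had 26.5, 33.6 and 34.6 CPM in Som_2 against 0.848 to 3.28 in Mot_1 (4.18; 4.54 and adjusted p = 0.192 with batch). Of the smaller lists, GABA-A receptors had 1 of 11 tested genes higher and 0 lower, neuromodulator receptors 0 and 1 of 17, regulators of G protein signalling 3 and 0 of 14, neuropeptides 2 and 1 of 8, immediate early genes 1 and 0 of 16, and midline and intralaminar markers 0 and 0 of 4, and none of these calls held with batch. Vgf, a secreted neuropeptide precursor, had 283, 138 and 167 CPM in Som_2 against 9.17 to 21.6 in Mot_1 (3.62, adjusted p = 1.27e-05; 3.15 and 0.0581 with batch).

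Without the batch covariate, fewer genes than against Mot_1 passed between Som_2 and the remaining clusters examined in detail, whereas with it the count against Mot_3 was the higher one. Each was tested against the same 3 Som_2 sums, so that the counts are not independent. They were 265 of 12741 for Mot_3 (2.08%; 139 with batch, 84 in both), 137 of 11684 for Mot_4 (1.17%; 19 with batch, 18 in both) and 29 of 11766 for Aud_1 (0.246%; 41 with batch, 17 in both). The 3 Som_2 sums weighed on these counts: without somatosensory animal 1, 2 or 3 they were 141, 124 and 110 for Mot_3, 44, 48 and 32 for Mot_4 and 4, 6 and 5 for Aud_1. Without motor animal 4 or 5 the Mot_4 count was 72 and 56, and without auditory animal 3, 4 or 5 the Aud_1 count was 8, 16 and 18. The single genes named next are given without the batch covariate, under which most calls against Mot_3 and Mot_4 and some against Aud_1 were lost. Tnnt1 had 482 ± 40.7 CPM in Som_2 (SD, n = 3) against 45.6 in Mot_3 (log2 3.39 ± 0.18, adjusted p = 9.33e-09) and 147 in Mot_4 (1.70, adjusted p = 0.00184), and differed by -0.52 from Aud_1 (adjusted p = 0.427). Abhd12b, a predicted lipid hydrolase, averaged 789 CPM in Som_2 against 82.1 in Mot_4 (3.24, adjusted p = 9.12e-05). Calretinin (Calb2) averaged 13.1 CPM in Som_2 against 341 in Mot_4 (-4.64, adjusted p = 0.00118), and Calb1 differed by -1.35. Necab1 averaged 12.1 CPM in Som_2 against 288 in Mot_3 (-4.50, adjusted p = 0.000607). Tenm2 averaged 30.5 CPM in Som_2 against 271 in Aud_1 (-3.13, adjusted p = 0.000187) and Cnih3 244 against 11.2 (4.47, adjusted p = 0.002). Against Mot_4, 6 of 18 genes of fast firing and neurofilaments were higher and 0 lower in Som_2, with a median of 0.94, for example Nefm by 1.22 and Nefh by 1.14. With batch 0 were called in either direction.

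**Figure D4:**
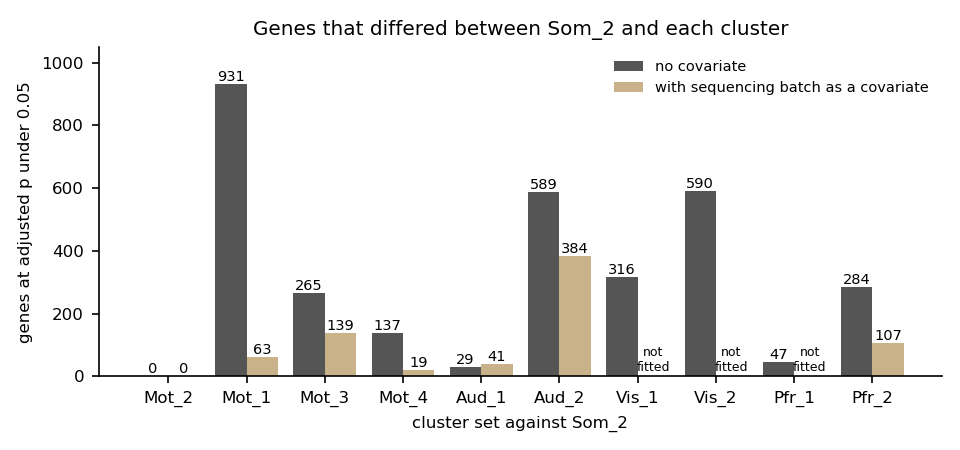
Genes at an adjusted p under 0.05 between Som_2 and each of 10 clusters of other systems (y axis, number of genes), without a covariate (dark) and with sequencing batch as a covariate (light; not fitted where the batch term could not be estimated). Mot_2 gave 0 and 0 and Mot_1 931 and 63; the number of sums and cells differs between clusters, and Pfr_1 has 1 sum.

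Som_2 and Som_1 lay in the same animals, on the same plates and in 1 batch, and their difference is given as a description because the clusters were made from these counts. Over 9132 genes at a mean of 10 CPM or more, 398 were over 2-fold higher in Som_2 in both animals with 10 cells of each cluster (4.36%) and 154 over 2-fold lower (1.69%), with a median log2 ratio of 0.08 over all genes. Ratios were taken with 1 CPM added. With animal 1, whose Som_1 sum has 6 cells, 357 genes passed in all 3 animals. The median cell had 102823 and 57067 UMIs in Som_2 against 181278 and 119471 in Som_1 of animals 2 and 3, and with cells thinned to 20000 UMIs 753 genes passed.

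The largest ratio was that of Scn3b, a sodium channel beta subunit (chromosome 9, 40269217 to 40291618, plus strand), with 77.9 and 140 CPM in Som_2 of animals 2 and 3 against 0.176 and 0.871 CPM in Som_1 (mean log2 ratio 6.15). Som_2 of animal 1 had 99.4 CPM and Mot_2 58.1 to 193 CPM. A Scn3b UMI was found in 34.1% of Som_2 cells (31.1% thinned), 57.2% of Mot_2 cells (43.4%) and 11.1% of Som_1 cells (0% thinned, where a count of 0 allows up to 3.33%). Som_3 had the highest share of these, 71.7% of cells (66.7% thinned), so Scn3b was not particular to Som_2. Sphkap, an anchor protein of protein kinase A, had 43.1, 36.3 and 32.5 CPM in Som_2 and a ratio of 4.84. Sema3e was at 0 in every Som_1 sum. Chrm2, the muscarinic M2 receptor, had 37.1, 33.4 and 27.6 CPM in Som_2, against 0 and 2.36 CPM in Som_1 of animals 2 and 3 (4.10). Of 11 neuromodulator receptors measured 5 were higher and 0 lower, Chrm2 together with the serotonin receptor Htr2c (1.98), the histamine receptor Hrh2 (1.80), the adrenergic receptor Adra2b (1.52) and the neuropeptide Y receptor Npy1r (1.44).

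Of 26 glutamate receptor genes measured 8 were higher and 1 lower in Som_2 than in Som_1, with a median log2 ratio of 1.10. The presynaptic receptor Grm2 had 21.1, 30.0 and 17.3 CPM in Som_2 against 1.94 and 2.24 in Som_1 (2.95). The AMPA receptor subunit Gria1 had 103, 91.0 and 128 CPM against 19 and 31.2 (2.10), and Grm5, a metabotropic receptor, 162, 132 and 206 against 58.3 and 54.0 (1.54). Gsg1l, an AMPA receptor auxiliary protein, was the exception (-3.24). Of 26 release genes 4 were higher, among them Syt5 (4.05) and the SNARE protein Stx1a (3.42), and 2 lower, Syt2 and Vamp1 (-1.54). Of 17 fast firing and neurofilament genes 7 were lower and 0 higher, among them Kcnab3 (-2.23), Scn4b (-1.91), Nefm (-1.70), Nefh (-1.57), Nefl (-1.50) and Kcna1 (-1.18). Cacna1g (1.22) and the pacemaker channel Hcn4 (1.04) were higher. Of 76 respiratory chain genes 6 were lower, with a median of -0.77. At the low end stood Pvalb (-4.88), Syt2 (-4.74), the galectin Lgals1 (-4.47), Cbln2 (-4.45) and Npy, neuropeptide Y (-3.44). Tnnt1 had a mean ratio of -0.03 and Nr2f2 of -0.88.

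A similar contrast in the motor system, Mot_2 against Mot_1 of motor animals 1, 3, 4 and 5, uses other cells, though motor animal 3 shared plates with the somatosensory cells. Mot_1 was more mixed than Som_1, which had 76 of 90 cells in joint cluster 1. Of 97 Mot_1 cells 45 were in joint cluster 1, 23 in joint cluster 4 and 18 in joint cluster 7. In motor animal 1, 10 of 12 Mot_1 cells were in joint cluster 4, so the contrasts are not like for like. Over the 8738 genes measured in both systems, 146 were over 2-fold higher in Mot_2 in all 4 animals (1.67%) and 80 lower (0.916%). Of 364 genes higher in Som_2 than in Som_1 68 were among those 146, which is 18.7% of the somatosensory and 46.6% of the motor genes. Of 142 lower genes 33 were shared (23.2% and 41.3%), and 0 passed in opposite directions. The motor mean had the same sign for 334 of the 364 and 127 of the 142. The share over all 8738 genes was not taken, so these counts are not read as agreement between the systems. Cluster 1 cells were the deeper ones in both systems. Median UMIs were 77682 to 290827 in Mot_1 and 68395 to 130833 in Mot_2 of these motor animals. The part of depth in the shared ratios was not tested. Across these genes the mean ratios had a Pearson r of 0.60 (8738 genes, which are not independent replicates and share libraries). Genes with like ratios in the somatosensory and the motor contrast were Nefm (-1.70 and -1.71), Tcf7l2 (1.39 and 1.41) and Foxp2 (1.59 and 1.85). Others were large in 1 system. Tnnt1 had -0.03 in the somatosensory and 2.25 in the motor contrast. Adgrf5 had 1.41 and 6.79, and Grik1 1.11 and 4.82, whereas the vessel growth factor Angpt2 had -3.13 and 0.17. These differences between the systems were not tested.

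**Figure D5:**
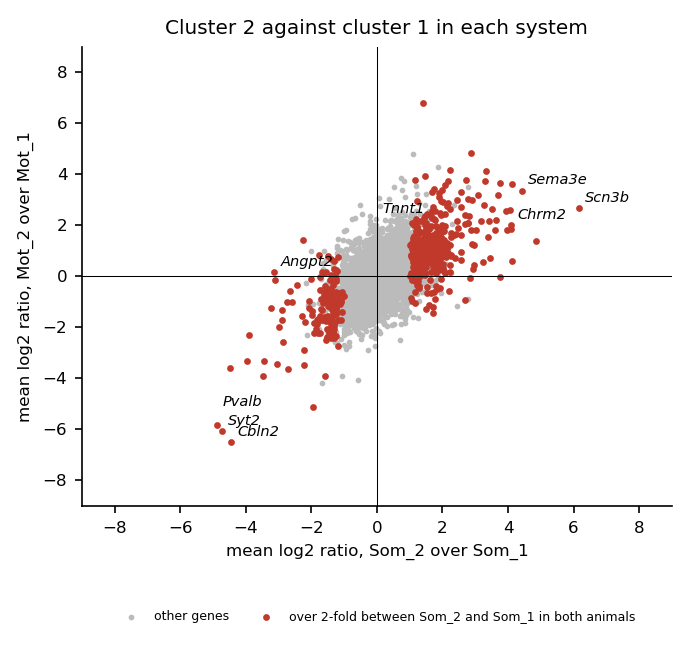
Mean log2 CPM ratio of each gene in the somatosensory contrast Som_2 over Som_1 (x axis, 2 animals) and the motor contrast Mot_2 over Mot_1 (y axis, 4 animals), over 8738 genes; red points passed 2-fold in both somatosensory animals. Most red points lie in the quadrants of equal sign, though the share of all genes there was not taken (r = 0.60 over all genes). Tnnt1 stands at -0.03 and 2.25.

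Within Som_2 the 3 animals were close. The Pearson correlation of log2 levels over 9327 genes was 0.897 to 0.907 between Som_2 sums, 0.716 to 0.942 between Som_2 and Mot_2 sums, 0.827 to 0.884 with Som_1, 0.805 to 0.855 with Som_3 and 0.732 to 0.842 with Mot_1. The medians were 0.861 with Mot_2, 0.864 with Som_1, 0.844 with Som_3 and 0.797 with Mot_1. The sums share plates and differ in depth, so these are descriptions. Genes that varied among the Som_2 animals were Necab1, with 0.354 to 26.1 CPM, Calb2, with 15.9, 20.7 and 2.83 CPM, and Scn4b, with 13, 40.6 and 42.8 CPM. Cnih3 at 238 to 247 CPM and Syt5 at 36.0 to 38.2 CPM barely varied.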

How the data were processed

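The deposited samples are 26 plates of hand-sorted single neurons from mouse thalamus. The values are counts of UMIs, unnormalized as deposited by the authors, for each cell over 36589 genes and 90 spike-ins; a cell table gives animal, plate, sequencing batch, cluster and joint cluster. The submitters' processing notes name cutadapt 1.16, Picard 1.12, STAR 2.5.3 and the build mm10; the annotation, the counting rule and the clustering are not given in the sources used here. In 1972 of 1972 cells the genes added up to the total in the cell table.

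Counts were summed per animal and cluster, because cells are not replicates, and a sum needed 10 cells. No cell was removed, and no doublet caller was run on hand-picked cells. The test was edgeR's (4.0.16, R 4.3.3; filterByExpr, TMM factors of 0.956 to 1.02, trended dispersion, glmQLFit and glmQLFTest, Benjamini-Hochberg at 0.05 over all genes tested), with 5 residual degrees of freedom against Mot_2 and 3 with batch. The scripts were tested on simulated data. Each p-value measures the spread between animals. DESeq2 1.42.0, Python 3.11.15, numpy 2.4.6, pandas 2.3.3 and scipy 1.17.1 were also used. Against Som_1 the log2 ratio of CPM + 1 was taken per animal and no test was made. Shares of cells with a UMI are also given with each cell thinned to 20000 UMIs.

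Genes to name were those of 20 gene lists and, per direction, the 10 of largest fold among genes that passed the threshold at 10 CPM or more. These 10 also had to have the same sign within batch 2 where both clusters had a sum there. For Som_1 the 12 with the largest ratio were taken. Because the rule gave no gene against Mot_2, the 12 of smallest p are named there. Results for a few such genes are not reported here. The cluster, the lists and the tests were chosen with earlier results of these data known. Coordinates come from GENCODE vM21 on GRCm38, matched by symbol. Alternatives were another scaling, no filter on low counts, DESeq2, batch as a covariate, batch 2 alone, thinned cells, leaving out cells with 3 or more markers of other types, joint cluster 2 alone, and each animal left out.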

Additional observations from a re-analysis of the deposited data

Results flagged for a closer look

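In 64 genes named above, the Mot_2 and the Mot_1 sums were searched for 1 sum far from the rest of its cluster, which gave 17 of 128 groups. Chance flags about 1 in 20 groups. Some of these genes, such as Mir6236 and Gm26870, were named above because 1 of these same sums stood apart. The count therefore cannot be read against that rate. The 3 Som_2 sums are too few for this search. In Mot_2, motor animal 1 (11 cells, batch 1) was low for Tnnt1 (86.7 CPM against 416 to 420 in the others), Slc17a6 (489 against 652 to 662) and Htr2c (5.38 against 41.3 to 44.9), and high for Mir6236 (6001 against 32.1 to 70.7), Syt5 (73.9 against 20.5 to 28.5) and Cbln2 (39.0 against 0 to 0.982). Motor animal 3, which shares its plates with Som_2, was high for Cacna1g (486 CPM against 340 to 359), Robo2 (15.8 against 5.94 to 6.88) and Gm26870 (1043 against 14.1 to 65.4). Motor animal 4 was high for Syt2 at 4.42 CPM, and motor animal 5 high for Kcna1 at 195 CPM and low for Stx1a at 10.6 CPM. In Mot_1, motor animal 3 was high for Gm26870 (296 CPM) and Adgrf5 (7.40), motor animal 1 low for Kcnab3 (106) and high for Npy1r (71.5), and motor animal 5 high for Htr2c (11.3).

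For Prkcd and Nop56 the ratios of both somatosensory animals with 10 cells of each cluster (animals 2 and 3) were below 0 and those of all 4 motor animals above 0, in the contrast of cluster 2 with cluster 1. The Prkcd ratios of the somatosensory animals were near 0. Prkcd had a mean log2 ratio of -0.02 in Som_2 over Som_1 and 0.58 in Mot_2 over Mot_1, a difference of -0.59. Nop56 had -0.50 and 0.77, a difference of -1.26. Nop56 was named above for its small p between Som_2 and Mot_2. That difference is part of this one, so it is not a separate result. The difference was not tested for either gene.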

How the results depend on the processing

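The count of 0 genes between Som_2 and Mot_2 was 15 with no filter on low counts, 1 with DESeq2 and 1 with thinned cells. It was 0 to 1 with an animal left out, and 0 under each other alternative tried. Against Mot_1 the 931 genes became 1601 with DESeq2 and 63 with batch as a covariate, and 335 to 995 with an animal left out, lowest without somatosensory animal 3. Against Mot_3 the 265 became 481 with no filter, 649 with DESeq2, 139 with batch and 110 to 320 with an animal left out. Against Mot_4 the 137 became 515, 671 and 19 under the same settings, 263 with thinned cells and 32 to 109 with an animal left out. Against Aud_1 the 29 became 148 with no filter, 193 with DESeq2, 71 with thinned cells and 4 to 41 with an animal left out. The 552 genes over 2-fold between Som_2 and Som_1 became 357 with the third animal added, and 1533 and 1840 with 1 animal left, where fewer animals have to agree. For the named genes no fold called against Mot_1 changed sign. Genes named by fold had to keep their sign within batch 2, so for them this was partly set in advance. Against Mot_3, 262 of the 265 called genes kept their sign with batch. Against Mot_1, 56 of the recomputed folds lost their call, 27 of them with batch, and 26 gained one. Against Mot_2, 59 folds changed sign, called neither before nor after, and 10 gained a call. Unless the text says otherwise, the cause of these changes was not tested. No paired analysis was possible because Som_2 and Mot_2 cells come from different animals, and the plates that they share hold Mot_2 cells of 1 motor animal only. Few animals, sums of 11 to 97 cells and the single batch of the somatosensory animals limit every test. Small differences between Som_2 and Mot_2 are not detectable with this number of animals and the spread between them.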
